A study of Drosophila melanogaster with 15 samples.

Results

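Cytochrome P450 genes were taken from the head transcriptomes of Drosophila males by their symbols, which consist of Cyp, a family number, 1 or 2 lower-case letters and a further number. This rule found 80 genes among the 17453 gene identifiers of the count tables. Cyclophilins such as Cyp1 and Cyp40, pseudogenes and the pair Cyp12d1-p and Cyp12d1-d stand outside it. RNA of 5-day-old naive males was sequenced as 15 libraries from 6 strains, and each library was made from about 100 pooled heads. The control, labelled WT, is the Bloomington strain 58492 with 2 libraries, which carries allele y1 of yellow, w1118 of white and DNAlig4169 of DNA ligase 4, together with the insertion M{Act5C-Cas9.P.RFP-}ZH-2A, in which the promoter of Actin 5C drives Cas9. The other 5 strains were made with CRISPR/Cas9 and lack enzymes of the transsulfuration pathway, which makes cysteine from homocysteine and is a source of hydrogen sulfide. Cystathionine beta-synthase is deleted in CBS-/-(5) with 2 libraries and CBS-/-(8) with 3, both enzymes are deleted in CBS-/-CSE-/-(1) with 3 and CBS-/-CSE-/-(2) with 2, and cystathionine gamma-lyase is deleted in CSE-/- with 3. The deletion strains also carry mutations of yellow and white according to the study's text, and whether they kept the ligase allele and the Cas9 insertion was not given in the sources used here. Each strain is a separate line, so a difference between strains and the effect of a deletion cannot be told apart where a genotype has 1 strain.

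Cytochromes P450 are haem enzymes that insert an oxygen atom into small molecules, with electrons passed on by a reductase. In insects they fall into the CYP2, CYP3, CYP4 and mitochondrial clans. Members of the CYP3 and CYP4 clans are known for the breakdown of plant toxins and insecticides and for the metabolism of fatty acids and pheromones, while members of the other clans include enzymes of ecdysteroid hormones. Some of the Cyp genes, 31 of the 80, lie in 11 tandem runs with gaps of at most 1000 bp, and neighbours there are often close paralogs.

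Reads counted on genes ranged from 6850445 to 21144213 per library, with a median of 10285508, and log2 levels of libraries from the same strain had a Pearson r of 0.941 to 0.985 across genes. Levels are given as CPM, the counts of a gene per 1e6 gene reads after TMM scaling. A floor of 3 counts was set for each library, which is 0.154 to 0.498 CPM. Transcripts of the deleted genes fell as the labels say. Cbs was at 174 and 202 CPM in WT and at 0.275 to 2.82 CPM in the 4 strains with a CBS deletion, and it was at 68.1 to 121 CPM in CSE-/-. Cth, which encodes CSE, was at 32.6 and 38.7 CPM in WT and at 0.733 to 1.73 CPM in the 3 strains with a CSE deletion. Photoreceptor genes, 11 in number, summed to between 39688 and 65220 CPM, in all libraries. Midgut genes, 32 digestive enzymes and other markers, also gave signal and differed between libraries. Their sum was 4979 and 15342 CPM in WT, 62.3 and 235 in CBS-/-(5), 8221 to 30315 in CBS-/-(8), 13600 to 19479 in CBS-/-CSE-/-(1), 19034 and 38837 in CBS-/-CSE-/-(2) and 1369 to 10807 in CSE-/-. The trypsin gammaTry was at 0 in all 15 libraries and up to 11 of the 32 genes were at 0 in a library of CBS-/-(5). In replicate 5 of CBS-/-(8) the yolk protein genes Yp1, Yp2 and Yp3, which female fat body expresses, stood apart, at 571, 1097 and 1564 CPM, against at most 8.8, 37.9 and 140 CPM in the other 14 libraries.

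P450 transcripts were plentiful in heads. Of the 80 genes, 62 were over 3 counts in all 15 libraries, 12 in some of them and 6 in none, and Cyp4d14 had no read at all. Mean levels were above 100 CPM for 16 genes, between 10 and 100 CPM for 32, between 1 and 10 CPM for 17 and under 1 CPM for 15. The 5 most abundant genes made up 45.3% of the summed P450 level. Per kb of exon, Cyp6g1, known for resistance to DDT and neonicotinoids, was highest with a mean of 622 CPM per kb over the 15 libraries. It was followed by Cyp6a2 with 294, Cyp9f2 with 291, Cyp6d5 with 271, Cyp28d1 with 263, Cyp4g15 with 211, Cyp6w1 with 209 and Cyp28a5 with 186 CPM per kb. Cyp6g1 ranged from 509 to 2404 CPM over the libraries, and the per-kb ranges of all 8 overlapped each other. All of these 8 are of the CYP3 clan except Cyp4g15, a member of the CYP4 clan. The summed level of the family was 7272 and 9403 CPM in WT, 5912 and 6042 in CBS-/-(5), 4561 to 5880 in CBS-/-(8), 7691 to 11340 in CBS-/-CSE-/-(1), 7150 and 9425 in CBS-/-CSE-/-(2) and 5493 to 8809 in CSE-/-. It was lower in every library of both CBS-/- strains than in either WT library, whereas the ranges of the other strains overlapped that of WT. Fewer cells of a type and less RNA per cell cannot be told apart in these bulk samples.

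**Figure D1:**
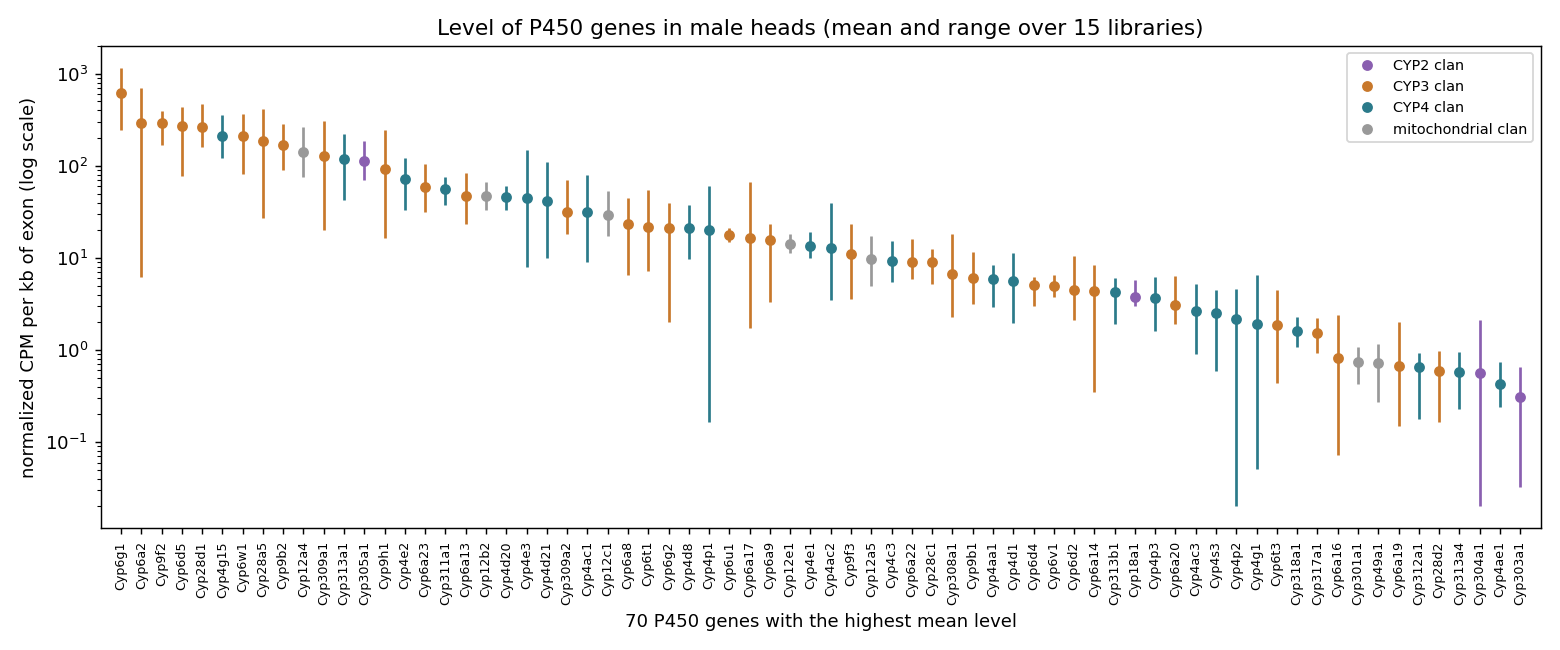
Level of the 70 P450 genes with the highest mean, ordered by mean CPM per kb of exon (log axis). Points are means over the 15 libraries and lines run from the lowest to the highest library, with values under 0.02 drawn at 0.02; Cyp6g1 leads with 622 CPM per kb, and Cyp6a2 and Cyp4p1 have some of the longest lines.

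Every strain was compared with WT, to see which P450 genes differ once CBS, CSE or both are lost. A gene was called changed at an adjusted p under 0.05 in edgeR's quasi-likelihood test, with adjustment over all genes tested. P450 genes changed more often than the background of all genes in each strain. In CBS-/-(5), 19 of 67 tested members were called, 2 higher and 17 lower, where 9.34% of all genes were called, 1.6% higher and 7.74% lower. In CBS-/-(8) it was 17 of 66, 3 higher and 14 lower, against 6.44% of all genes, 1.76% higher and 4.67% lower. In CBS-/-CSE-/-(1) it was 16 of 69, 5 higher and 11 lower, against 4.18%, 1.15% higher and 3.03% lower. In CBS-/-CSE-/-(2) it was 13 of 70, 3 higher and 10 lower, against 3.45%, 1.1% higher and 2.36% lower. In CSE-/- it was 7 of 69, 3 higher and 4 lower, against 0.778%, 0.213% higher and 0.565% lower. The median log2 fold change of the tested members was -0.44, -0.57, -0.25, -0.21 and -0.24 in these strains in turn, where the median of all genes lay between 0.00 and 0.04. All 5 comparisons share the same 2 WT libraries, so they are not independent of each other. Nothing in the labels or the methods says how replicates were separated beyond the collection of heads, so p-values measure the spread between these samples.

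With so few libraries the counts depend on single ones. Without WT replicate 3, edgeR called no member and no other gene in CBS-/-(5), and 10 members in CBS-/-(8), where 2.68% of all genes were called. Without WT replicate 1 or without WT replicate 3, 7 were called in CBS-/-CSE-/-(1), with 1.18% and 1.67% of all genes, and 4 in CBS-/-CSE-/-(2), with 0.934% and 1.31%. Without replicate 1 of CBS-/-(8) the count there rose to 26, with 17.6% of all genes called. Without replicate 2 of CBS-/-CSE-/-(1) it fell to 6, with 0.894% of all genes, and without replicate 1 of CSE-/- only Cyp6a2 was called, with 0.173% of all genes.

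**Figure D2:**
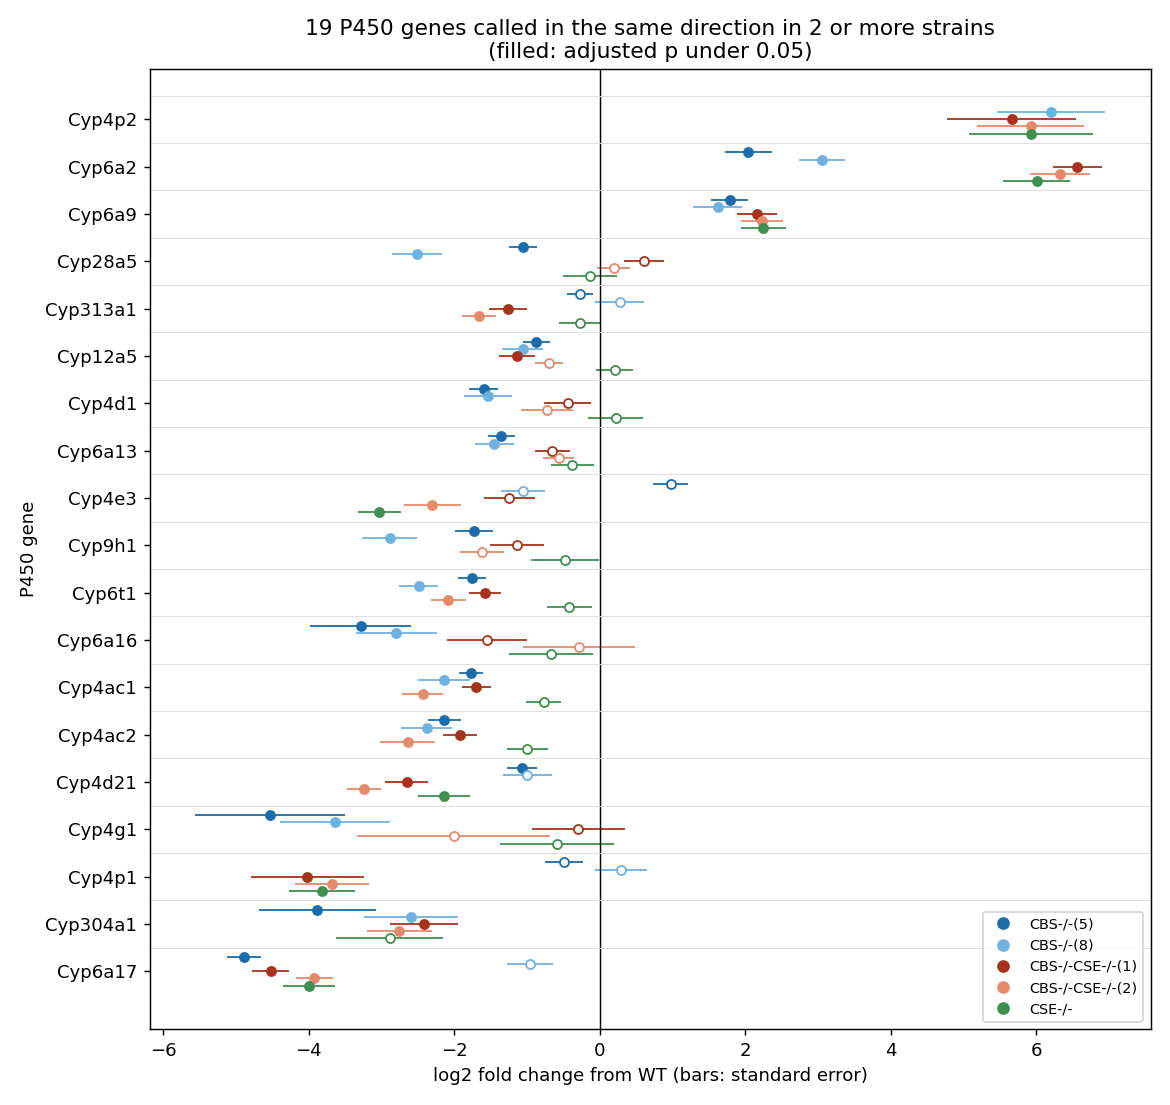
Log2 fold change from WT (x axis, bars show the standard error) of the 19 P450 genes called in the same direction in 2 or more of the 5 deletion strains, which is part of the rule for naming genes; filled points have an adjusted p under 0.05. Cyp6a2 and Cyp6a9 lie to the right in every strain, Cyp4p2 was not tested in CBS-/-(5) and its fitted change has no exact size because WT had 1 and 0 counts, and the other 16 genes were called lower.

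Cyp6a2, an enzyme of the CYP3 clan that metabolises insecticides and is induced by phenobarbital, showed the largest rise of the members tested in all 5 comparisons. It was at 10.3 and 11.5 CPM in WT. The level was 31.4 and 57.1 CPM in CBS-/-(5) and 83.5, 81.5 and 110 CPM in CBS-/-(8). In CBS-/-CSE-/-(1) it reached 1058, 870 and 1178 CPM, in CBS-/-CSE-/-(2) 615 and 1159.9 CPM, and in CSE-/- 523, 673 and 914 CPM. The libraries therefore form 3 separate levels, with WT lowest, the CBS-/- strains between and every strain without CSE highest. Cyp6a2 rose by a log2 fold change of 2.04 ± 0.32 (SE) in CBS-/-(5) with adjusted p = 0.0177, and by 3.06 ± 0.31 in CBS-/-(8) with adjusted p = 0.000197. On the same scale it rose by 6.57 ± 0.33 in CBS-/-CSE-/-(1) with adjusted p = 0.000267, 6.33 ± 0.41 in CBS-/-CSE-/-(2) with adjusted p = 0.00471 and 6.01 ± 0.46 in CSE-/- with adjusted p = 0.000519. The call in CBS-/-(5) was lost without either WT library (adjusted p = 0.103 without replicate 1 and 0.164 without replicate 3), and those in the other 4 strains held in every fit that left out a library. The gene lies on arm 2R at 6779749 to 6781491 (dm6), and Cth lies on the same arm at 18627918 to 18629395. The midgut sum was 4979 and 15342 CPM in WT and 1369 to 10807 CPM in CSE-/-, and its part in the difference from WT was not tested.

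Cyp6a9 was the other member called higher in each strain. Its level was 10.1 and 6.48 CPM in WT, 26.3 and 30.6 in CBS-/-(5), 18.8 to 30.5 in CBS-/-(8), 33.9 to 43.1 in CBS-/-CSE-/-(1), 33.8 and 45.8 in CBS-/-CSE-/-(2) and 37.9 to 40.8 in CSE-/-. No library of a deletion strain reached down to WT. Log2 fold changes reached 1.78 ± 0.26 in CBS-/-(5), 1.62 ± 0.33 in CBS-/-(8), 2.16 ± 0.27 in CBS-/-CSE-/-(1), 2.23 ± 0.29 in CBS-/-CSE-/-(2) and 2.25 ± 0.30 in CSE-/-, with adjusted p of 0.0141, 0.0137, 0.00719, 0.0199 and 0.0136. Without WT replicate 3 the calls in CBS-/-(5), CBS-/-(8), CBS-/-CSE-/-(2) and CSE-/- were lost (adjusted p = 0.0901, 0.174, 0.0605 and 0.145). Without WT replicate 1 that in CBS-/-CSE-/-(2) was lost (0.0506), and without replicate 1 of CSE-/- that in CSE-/- (0.128). An exon of Cyp6a9 overlaps Cyp6a19 on the opposite strand. The library kit keeps the strand, but the strand setting of the counting was not given in the sources used here, so reads of such a pair may not have been told apart. Cyp6a8, known to be induced by caffeine and phenobarbital, was higher in CBS-/-CSE-/-(1) by 1.53 ± 0.33 (adjusted p = 0.0471), a call that 4 of the 5 fits without a library lost. In the other 4 strains its log2 fold changes of 0.86 to 1.27 did not pass the test.

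**Figure D3:**
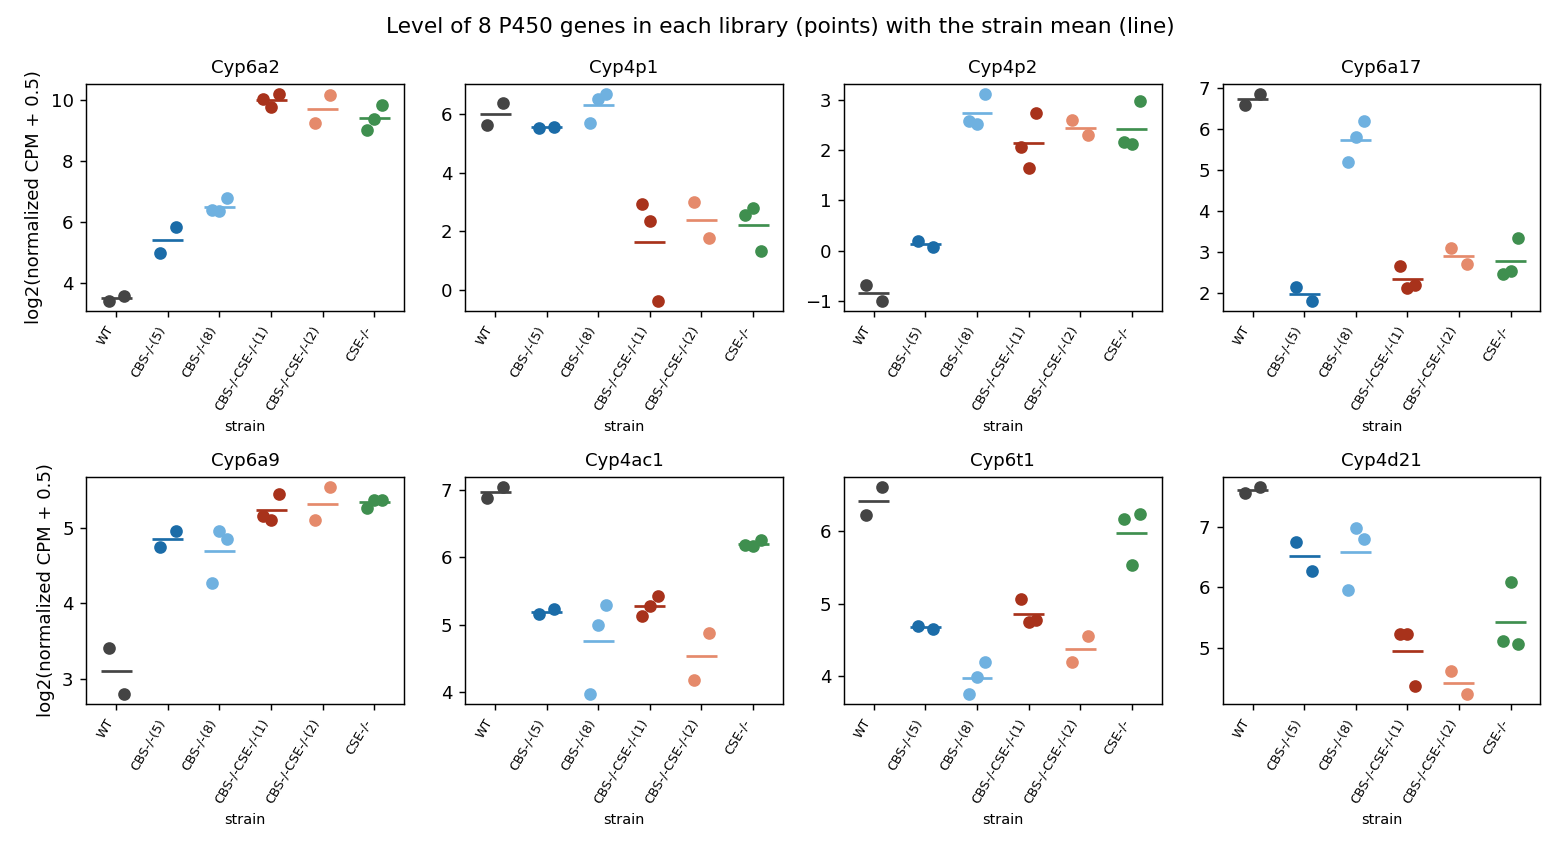
Level of 8 P450 genes in each of the 15 libraries, as log2(CPM + 0.5) on the y axis, with strains on the x axis and a line at the mean of each strain's log2 values. Cyp6a2 shows 3 separate levels, Cyp4p1 is low only in the 8 libraries with a CSE deletion, Cyp6a17 is low in all deletion strains but CBS-/-(8), and Cyp4ac1 and Cyp6t1 are lower in the 10 libraries with a CBS deletion than in the other 5.

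Cyp6a17, which acts in temperature preference, was the member with the lowest log2 fold change in CBS-/-(5), CBS-/-CSE-/-(1), CBS-/-CSE-/-(2) and CSE-/-. It was at 96.4 and 115.2 CPM in WT. It was at 3.94 and 3.03 CPM in CBS-/-(5), 3.85 to 5.88 in CBS-/-CSE-/-(1), 8.04 and 6.02 in CBS-/-CSE-/-(2) and 4.99 to 9.74 in CSE-/-, but at 36.2, 55.3 and 73.4 CPM in CBS-/-(8). The 10 low libraries thus lay far under both WT and CBS-/-(8). Cyp6a17 fell on the log2 scale, with a fold change of -4.90 ± 0.23 in CBS-/-(5), -4.53 ± 0.26 in CBS-/-CSE-/-(1), -3.93 ± 0.26 in CBS-/-CSE-/-(2) and -4.0 ± 0.36 in CSE-/- (adjusted p = 0.00146, 0.000296, 0.00471 and 0.00149). In CBS-/-(8) it was -0.96 and did not pass. The call in CBS-/-(5) was lost without WT replicate 3 (adjusted p = 0.0579) and that in CSE-/- without its replicate 1 (adjusted p = 0.0556). The difference between both CBS-/- strains was itself called, at a log2 difference of -3.99 ± 0.38 (adjusted p = 0.000991), with no overlap between their libraries.

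The neighbours of Cyp6a17 moved otherwise. Cyp6a22, Cyp6a17, Cyp6a23, Cyp6a19, Cyp6a9 and Cyp6a20 form a run on arm 2R from 14871366 to 14884046 (dm6), with gaps of at most 1000 bp. Cyp6a23, next to Cyp6a17 and its close paralog, was at 55.2 and 86.2 CPM in WT, 61.5 to 79.5 in both CBS-/- strains and 92.6 to 185 in the 8 libraries with a CSE deletion. No library with the CSE deletion overlapped one without it, though no comparison of Cyp6a23 with WT passed the test. Cyp6a22, on the other side, had log2 fold changes of -0.63 to -1.06, called in CBS-/-CSE-/-(2) alone (adjusted p = 0.0488), and 4 of 4 fits without a library lost that call. Cyp6a20, known for its part in male aggression, was called in no comparison with WT. It differed among the 6 strains (adjusted p = 0.0164), a call lost without replicate 2 (0.0936) or 5 (0.0807) of CBS-/-(8). How reads that match several such paralogs were counted was not given in the sources used here, so levels within this run are uncertain in part.

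Other highly expressed members of the CYP3 clan fell in CBS-/- strains. Of the 37 members of the clan, 33 were tested in CBS-/-(5) with 2 higher and 9 lower, and 32 in CBS-/-(8) with 2 higher and 7 lower. In each of the others 34 were tested, with 4 higher and 4 lower in CBS-/-CSE-/-(1), 2 and 3 in CBS-/-CSE-/-(2) and 2 and 1 in CSE-/-. The share of all genes called was 9.34%, 6.44%, 4.18%, 3.45% and 0.778% in these strains in turn. Cyp28a5 was at 338 and 414 CPM in WT, 194 and 163 in CBS-/-(5) and 47.4 to 92.5 in CBS-/-(8). It fell by 1.05 ± 0.19 on the log2 scale in CBS-/-(5) (adjusted p = 0.0251) and by 2.51 ± 0.34 in CBS-/-(8) (adjusted p = 0.00126), and the first call was lost without WT replicate 3 (0.121) or without replicate 3 of the strain (0.146). In the double deletion and CSE-/- strains it lay at 210 to 733 CPM, around the WT values. Cyp28d1, whose exon overlaps CG7742 on the opposite strand, was at 566 and 761 CPM in WT and at 261 and 278 in CBS-/-(5), a log2 fold change of -1.28 ± 0.20 (adjusted p = 0.016), lost without WT replicate 3 (0.0677). Cyp9h1 was at 237 and 393 CPM in WT, 92.5 and 95.4 in CBS-/-(5) and 26.8 to 59.8 in CBS-/-(8), with log2 fold changes of -1.72 ± 0.26 (adjusted p = 0.0161) and -2.89 ± 0.38 (adjusted p = 0.00107). The first of these calls was lost without WT replicate 3 (0.0622).

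Cyp6d5 and Cyp6a14 were low in CBS-/-(8). Cyp6d5, which caffeine induces, was at 496 and 696 CPM in WT, 551 and 493 in CBS-/-(5) and 126, 145 and 194 in CBS-/-(8). Its log2 fold change was -1.96 ± 0.32 in CBS-/-(8) (adjusted p = 0.00387), and the levels of both CBS-/- strains differed by 1.74 ± 0.25 (adjusted p = 0.00571). Cyp6a14 was at 10.2 and 13.4 CPM in WT, 12.8 and 8.81 in CBS-/-(5) and 1.04 to 2.09 in CBS-/-(8), with -2.89 ± 0.37 against WT (adjusted p = 0.00086) and 2.72 ± 0.36 between both strains (adjusted p = 0.00383). For both genes CBS-/-(8) lay under all libraries of the other strains. Each of these 4 calls held in every fit that left out a library.

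Cyp6a13 and Cyp6a16 fell in both CBS-/- strains. Cyp6a13 was at 108 and 136 CPM in WT, 46.0 and 48.4 in CBS-/-(5) and 38.6 to 48.8 in CBS-/-(8), with log2 fold changes of -1.35 ± 0.18 and -1.45 ± 0.27 (adjusted p = 0.0119 and 0.00787). Both calls were lost without WT replicate 3 (0.0741 and 0.0915). Cyp6a16 was at 2.61 and 5.98 CPM in WT and at 0.183 to 0.895 in the 5 libraries of both CBS-/- strains. Its log2 fold changes were -3.29 ± 0.69 and -2.80 ± 0.56. It may have passed the filter on low counts only through WT, where it is high, so no p is given as support. Both calls were lost without WT replicate 3, and the one in CBS-/-(5) also without WT replicate 1. For Cyp6g1, Cyp9f2 and Cyp6w1, the most abundant of the clan apart from the genes above, no comparison with WT passed the test, and Cyp9b2 fell in CBS-/-(5) alone (-1.05 ± 0.18, adjusted p = 0.0222), a call lost without WT replicate 3 (0.0886) or either library of the strain (0.0694 and 0.114). Cyp6g1, whose exon overlaps Cyp6g2 on the opposite strand, lay at 1092 and 1266 CPM in WT, 509 to 948 in the 5 libraries of both CBS-/- strains and 1459 to 2404 in the 5 double deletion libraries. Cyp6w1 ranged from 197 to 869 CPM over the libraries and Cyp308a1 from 3.67 to 28.7, and neither was called in any comparison. Cyp9f3, at 12.3 and 19.4 CPM in WT and 35.6 to 47.5 in CBS-/-CSE-/-(1), was called higher there (1.36 ± 0.27, adjusted p = 0.0346), but 4 of 5 fits without a library lost that call. Cyp6d2, whose exon overlaps nsr on the opposite strand, was called lower in CBS-/-(5) (-1.31 ± 0.30, adjusted p = 0.0494), and 3 of 4 such fits lost it.

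**Figure D4:**
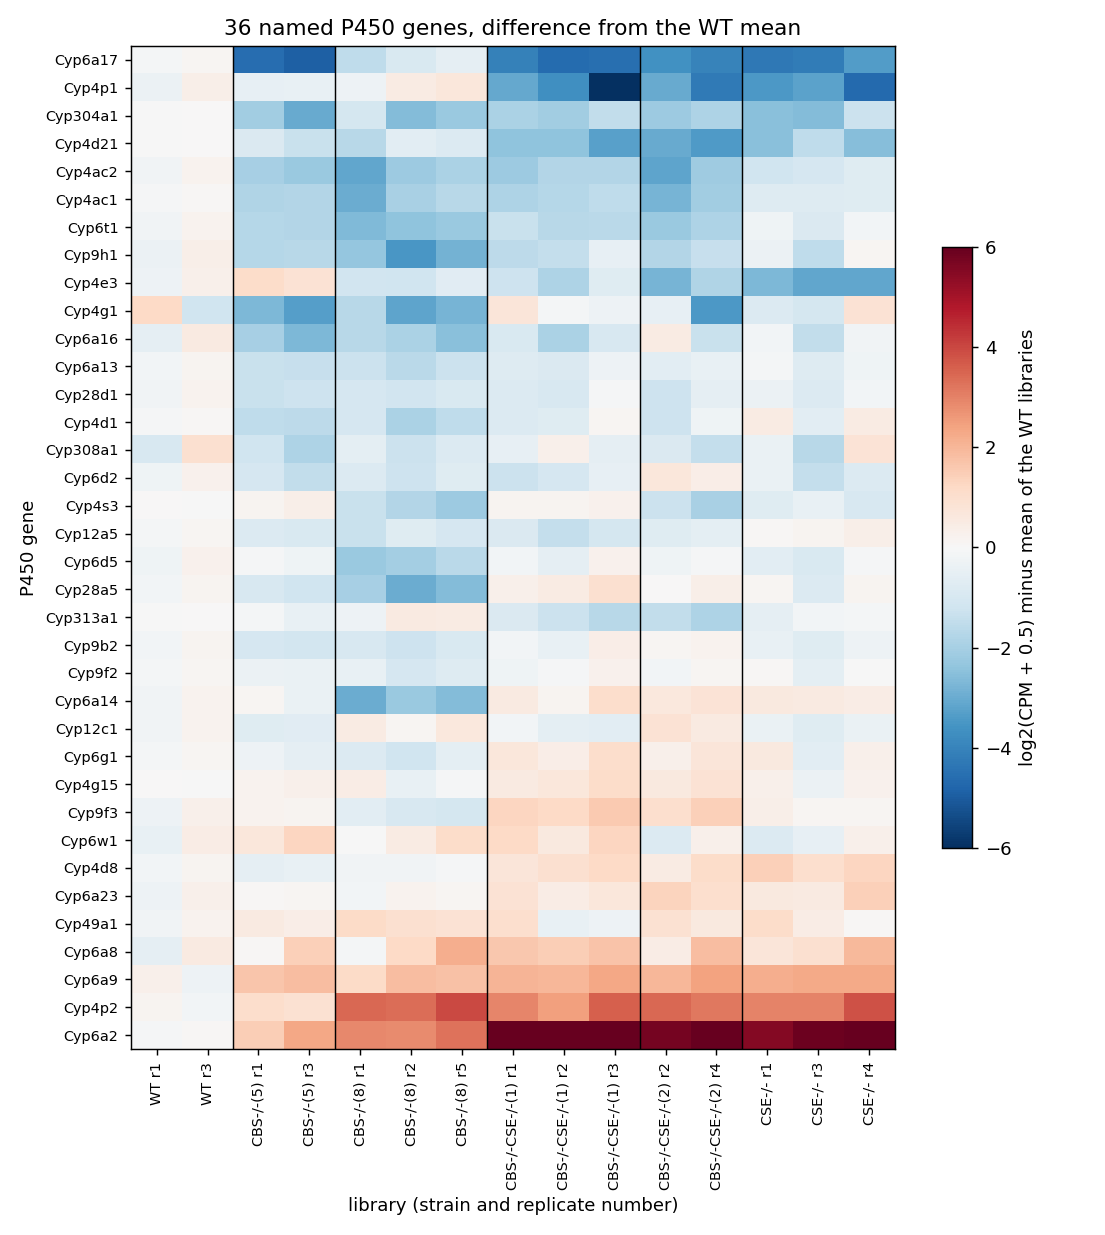
The 36 named P450 genes (rows) in the 15 libraries (columns, strain and replicate number), coloured by log2(CPM + 0.5) minus the mean of the WT libraries. The scale ends at -6 and 6, so Cyp6a2 is at the end of the scale in most libraries with a CSE deletion, and Cyp6a2, Cyp4p2 and Cyp6a9 lie above WT in every deletion strain.

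Within the CYP4 clan, the neighbours Cyp4p1 and Cyp4p2 of the Cyp4p run moved apart. Cyp4p2, Cyp4p1 and Cyp4p3 lie in a row on arm 2R from 9237512 to 9244410 (dm6). Cyp4p1 was at 49.2 and 82.4 CPM in WT, 45.1 and 47.1 in CBS-/-(5) and 51.8 to 102 in CBS-/-(8). In the strains without CSE it was at 7.18, 4.57 and 0.275 CPM in CBS-/-CSE-/-(1), 7.49 and 2.92 in CBS-/-CSE-/-(2) and 5.35, 6.38 and 2.03 in CSE-/-. Groups with and without the CSE deletion did not overlap. The log2 fold change from WT was -4.02 ± 0.78, -3.68 ± 0.51 and -3.82 ± 0.45 in these strains (adjusted p = 0.0324, 0.0246 and 0.00616), and -0.49 in CBS-/-(5) and 0.29 in CBS-/-(8), which did not pass. The calls were lost without WT replicate 1 (0.0645) or 3 (0.0959) or without replicate 2 of the strain (0.16) in CBS-/-CSE-/-(1), without either WT library in CBS-/-CSE-/-(2) (0.062 and 0.0759) and without replicate 1 in CSE-/- (0.16).

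Cyp4p2, the neighbour of Cyp4p1, moved the other way. It had 1 count and none in WT, 0.642 and 0.55 CPM in CBS-/-(5), 5.23 to 8.23 in CBS-/-(8), 2.62 to 6.23 in CBS-/-CSE-/-(1), 5.55 and 4.44 in CBS-/-CSE-/-(2) and 3.86 to 7.39 in CSE-/-. Against the WT floor of 3 counts per library it was at least 14.5-fold higher in CBS-/-(8), 9.62-fold in CBS-/-CSE-/-(1), 11.5-fold in CBS-/-CSE-/-(2) and 11.6-fold in CSE-/-. It passed the filter on low counts only through the strains where it is high and is among the called members there, so no p is given as support. CBS-/-(5) was under CBS-/-(8) by 3.39 ± 0.41 on the log2 scale. Cyp4p3, at 2.69 to 10.3 CPM, was called in no comparison. For this run too, the sources used here did not give how reads that match several of its genes were counted.

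Cyp4ac1 and Cyp4ac2, of a run of 3 genes on arm 2L from 5264001 to 5270329 (dm6), fell in all 4 strains with a CBS deletion. Cyp4ac1 was at 118 and 131 CPM in WT, 71.4 to 76.0 in CSE-/- and 15.2 to 42.6 in the 10 libraries without CBS. Cyp4ac2 was at 48.9 and 66.9 CPM in WT, 24.5 to 34.9 in CSE-/- and 6.03 to 16.8 without CBS. Neither gene overlapped between strains with and without CBS. For Cyp4ac1 log2 fold changes were -1.77 ± 0.16, -2.14 ± 0.36, -1.70 ± 0.20 and -2.44 ± 0.28 in CBS-/-(5), CBS-/-(8), CBS-/-CSE-/-(1) and CBS-/-CSE-/-(2) (adjusted p = 0.00525, 0.00397, 0.00546 and 0.0154). For Cyp4ac2 they were -2.14 ± 0.23, -2.38 ± 0.35, -1.93 ± 0.24 and -2.64 ± 0.38 (adjusted p = 0.00748, 0.00193, 0.00639 and 0.0265). In CSE-/- they were -0.77 and -1.0 and did not pass. Without WT replicate 3 the calls of both genes were lost in CBS-/-(5) (0.061 and 0.0652) and in CBS-/-CSE-/-(2) (0.0562 and 0.0902), as they were there without WT replicate 1 (0.0599 and 0.0718), and Cyp4ac1 was lost in CBS-/-CSE-/-(1) without its replicate 2 (0.0535). Cyp4ac3, the last of the run and much lower, at 1.47 to 8.46 CPM, did not pass in any comparison with WT and had log2 fold changes of 1.02 and 0.97 in the CBS-/- strains.

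Cyp4d21, also known as sxe1, is expressed in the fat body of male heads and acts in courtship. It was at 191 and 203 CPM in WT, 108 and 76.7 in CBS-/-(5), 61.9 to 127 in CBS-/-(8), 20.1 to 37.0 in CBS-/-CSE-/-(1), 23.8 and 18.2 in CBS-/-CSE-/-(2) and 32.8 to 68.0 in CSE-/-. All 13 libraries of deletion strains lay under both WT libraries. On the log2 scale Cyp4d21 changed by -1.07 ± 0.21 in CBS-/-(5), -2.65 ± 0.30 in CBS-/-CSE-/-(1), -3.24 ± 0.24 in CBS-/-CSE-/-(2) and -2.14 ± 0.36 in CSE-/- (adjusted p = 0.0345, 0.0043, 0.00602 and 0.0369), and in CBS-/-(8) -0.99, which did not pass. Calls in the double deletion strains held in each fit without a library. That in CBS-/-(5) was lost without either WT library (0.0776 and 0.162) or its replicate 3 (0.202), and that in CSE-/- without either WT library (0.0611 and 0.0946) or its replicate 1 (0.383). The 13 fat body genes summed to 4330 and 5633 CPM in WT, 2491 and 2692 in CBS-/-(5), 2192 to 6053 in CBS-/-(8), 3259 to 4777 in CBS-/-CSE-/-(1), 2319 and 3771 in CBS-/-CSE-/-(2) and 2815 to 3374 in CSE-/-, with at most 1 gene at 0 in a library. The list holds Yp1, Yp2 and Yp3. The 6053 CPM was replicate 5 of CBS-/-(8), where these were at 571, 1097 and 1564 CPM. The part of the fat body genes in the result was not tested.

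Cyp4e3, which protects against permethrin in the Malpighian tubules, differed widely between strains. It was at 101 and 155 CPM in WT, 267 and 231 in CBS-/-(5) and 54.2 to 78.3 in CBS-/-(8). It was at 34.4 to 76.5 in CBS-/-CSE-/-(1), 17.5 and 35.3 in CBS-/-CSE-/-(2) and 14.2 to 18.7 in CSE-/-. The log2 fold change was -3.03 ± 0.30 in CSE-/- (adjusted p = 0.00186, lost without its replicate 1 at 0.0561) and -2.30 ± 0.39 in CBS-/-CSE-/-(2) (adjusted p = 0.0416, lost without either WT library at 0.0826 and 0.120). It was 0.98 in CBS-/-(5), with adjusted p = 0.0588. The Malpighian tubule list of 9 genes summed to between 183 and 366 CPM in all libraries, with 0 to 3 genes at 0 in a library. Cyp4e3 lies on arm 2L, and Cyp4e1 and Cyp4e2 of the same subfamily, which lie side by side on 2R, were called in no comparison.

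Cyp4d1, Cyp4s3, Cyp313a1 and Cyp4g1 complete the named members of the clan that changed. Cyp4d1 was at 17.4 and 18.9 CPM in WT and at 4.45 to 8.80 in both CBS-/- strains, with log2 fold changes of -1.60 ± 0.20 and -1.53 ± 0.33 (adjusted p = 0.00958 and 0.0169), both lost without WT replicate 3 (0.0746 and 0.116) and the second also without replicate 5 of CBS-/-(8) (0.0518). Cyp4s3, whose exon overlaps Rab3-GEF on the opposite strand, was at 8.08 and 7.64 CPM in WT, 8.71 and 10.3 in CBS-/-(5) and 1.34 to 2.83 in CBS-/-(8). Its log2 fold change was -1.98 ± 0.39 in the last (adjusted p = 0.0098), a call lost without WT replicate 3. Cyp313a1 was at 242 and 255 CPM in WT, 180 to 360 in both CBS-/- strains and 68.5 to 134 in the 5 double deletion libraries, and it fell by 1.26 ± 0.26 in CBS-/-CSE-/-(1) and by 1.66 ± 0.23 in CBS-/-CSE-/-(2) (adjusted p = 0.0413 and 0.0246). Both of these calls were lost without either WT library (0.17 and 0.183 for the first, 0.076 and 0.0765 for the second), and the first without replicate 2 of its strain (0.188). Cyp4g1, the enzyme that makes cuticular hydrocarbons in oenocytes, was at 14.9 and 2.49 CPM in WT and 0.183 to 1.64 in both CBS-/- strains. It was called lower in both, with -4.53 ± 1.03 and -3.64 ± 0.76. It may have passed the filter on low counts only through WT, where it is high, so no p is given as support. The WT values differ by far more than those of most members, and without WT replicate 1 both calls were lost (0.0823 and 0.238), the first also without WT replicate 3 (0.0681). Its relative Cyp4g15, which is expressed in the nervous system, reached 943 CPM and was called in no comparison with WT. The 5 matched oenocyte genes summed to between 13.3 and 20.4 CPM in all libraries, with eloF at 0 in 14 of 15.

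The CYP2 and mitochondrial clans are small. Of the 4 CYP2 clan members, Cyp304a1 alone was called against WT. Of the 7 mitochondrial clan members 2 were called in CBS-/-(5), 1 in CBS-/-(8), 1 in CBS-/-CSE-/-(1) and 0 in the other strains, all lower. For all genes, lower calls made up 7.74% in the first of these strains, 4.67% in the second and 3.03% in the third. They made up 2.36% in CBS-/-CSE-/-(2) and 0.565% in CSE-/-. With 4 and 7 members, such counts say little about how either clan compares with all genes, which was not tested. Cyp304a1 was at 3.61 and 3.65 CPM in WT and at 0 to 1.49 in the 13 other libraries. Its log2 fold changes were -3.89 ± 0.80, -2.59 ± 0.64, -2.42 ± 0.47 and -2.76 ± 0.45 in the 4 strains without CBS, where it was called lower. In CSE-/- it was -2.89, which did not pass. Cyp304a1 may have passed the filter on low counts only through WT, where it is high, so no p is given as support. All 4 calls were lost without either WT library (adjusted p of 0.0762 to 0.196), and each of the last 3 also without a library of its own strain, which were replicate 5 of CBS-/-(8) (0.0648), replicates 1 (0.073) and 2 (0.149) of CBS-/-CSE-/-(1) and replicate 2 of CBS-/-CSE-/-(2) (0.0715). Cyp18a1, which inactivates ecdysteroids, stayed between 9.1 and 17.8 CPM, with log2 fold changes of -0.15 to 0.14. Of the 7 mitochondrial clan members Cyp12a5 was called lower in CBS-/-(5), CBS-/-(8) and CBS-/-CSE-/-(1), by -0.87 ± 0.19, -1.06 ± 0.28 and -1.14 ± 0.25 (adjusted p = 0.0423, 0.0492 and 0.044), at 22.9 and 27.1 CPM in WT, 26.4 to 31.9 in CSE-/- and 8.93 to 16.3 in the 10 libraries without CBS. Those calls did not hold in most fits without a library, with adjusted p up to 0.385. Cyp12a4, its neighbour, known for resistance to lufenuron, was called lower in CBS-/-(5) alone (-1.45 ± 0.22, adjusted p = 0.0158, 0.08 without WT replicate 3). Cyp49a1, at 0.77 to 3.28 CPM, was called in no comparison.

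Several members separated all libraries by 1 deleted gene. Strains with a CSE deletion gave 8 libraries and the others 7, and for Cyp6a2, Cyp6a9, Cyp4d8 and Cyp6a23 every library with the deletion was higher, and for Cyp4p1 every one was lower. Over all genes with enough counts, 0.614% did not overlap between these libraries, 0.292% higher and 0.322% lower with the deletion. By arm it was 0.126% on X, 1.26% on 2L, 1.14% on 2R, 0.374% on 3L and 0.286% on 3R. Of the 5 members, Cyp4d8 is on arm 3L and the other 4 are on 2R, as is Cth. Arm 2R also holds 29 of the 70 members with enough counts. Cyp4d8 was at 31.3 to 59.8 CPM with the deletion and 15.3 to 25.1 without it, but it was called in no comparison with WT. Strains with a CBS deletion gave 10 libraries and the others 5. For Cyp6t1, Cyp4ac1, Cyp4ac2, Cyp12b2 and Cyp12a5 every library with that deletion was lower, where 1.42% of all genes did not overlap, 0.534% higher and 0.886% lower. By arm it was 1.07% on X, 1.26% on 2L, 1.19% on 2R, 1.98% on 3L and 1.55% on 3R. For Cyp12b2 the gap was narrow, with up to 85.8 CPM with the deletion and at least 86.2 without it. No comparison of Cyp12b2 with WT passed the test, and its exon overlaps Jabba on the opposite strand. Cyp6t1 was at 74.0 and 97.1 CPM in WT, 45.7 to 75.1 in CSE-/- and 13 to 33.0 without CBS. It fell by 1.75 ± 0.19 in CBS-/-(5), 2.49 ± 0.27 in CBS-/-(8), 1.58 ± 0.22 in CBS-/-CSE-/-(1) and 2.08 ± 0.24 in CBS-/-CSE-/-(2) (adjusted p = 0.00762, 0.000294, 0.0102 and 0.0146), and the first call was lost without WT replicate 3 (0.0618) and the third without WT replicate 3 (0.063) or replicate 2 of that strain (0.0832). Cyp6t1 lies on X at 21517434 to 21519218, and Cbs is on the same chromosome at 21045138 to 21049096 (dm6).

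To see what the loss of CSE adds to that of CBS without using WT, both double deletion strains, 5 libraries, were compared with both CBS-/- strains, also 5. Both strains of a genotype formed 1 group without a term for strain. These p-values therefore treat the 5 libraries as independent and do not take the strain as the unit. Of 66 tested members 23 were called, 15 higher and 8 lower in the double deletion, where 27.6% of all genes were called, 13.3% higher and 14.4% lower. The median log2 difference was 0.25 for the members and -0.06 for all genes. In the CYP3 clan 11 were higher and 2 lower, and in the CYP4 clan 4 were higher and 6 lower. The largest differences belonged to Cyp6a2, 3.74 ± 0.33 higher (adjusted p = 0.000101), and Cyp4p1, 3.90 ± 0.56 lower on the log2 scale (adjusted p = 0.00256). Cyp6g1 was higher by 1.31 ± 0.20 (adjusted p = 0.0033), Cyp28a5 by 2.21 ± 0.37 (adjusted p = 0.00688), Cyp9f3 by 1.69 ± 0.27 (adjusted p = 0.00471), Cyp4d8 by 1.21 ± 0.15 (adjusted p = 0.000973) and Cyp9b2 by 1.09 ± 0.16 (adjusted p = 0.00329). Lower ones were Cyp313a1 by 1.49 ± 0.25 (adjusted p = 0.00636), Cyp4d21 by 1.84 ± 0.26 (adjusted p = 0.00249) and Cyp4ac3 by 1.45 ± 0.26 (adjusted p = 0.00955). These 10 calls held in all 10 fits that left out a library, though 7 of them were lost in 1 of the other alternatives, with the replicate number as a block (adjusted p of 0.0552 to 0.141). Calls of Cyp6a17 and Cyp4e3, 2.62 ± 0.75 and 1.68 ± 0.53 lower, held in 5 and 2 of the 10 fits. Cyp6a17 was at 3.94 and 3.03 CPM in CBS-/-(5), within or under the 3.85 to 8.04 CPM of the double deletion libraries. Only CBS-/-(8) lay above them.

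The count fell without single libraries, and so did the share of all genes called. It was 14 without replicate 2 or 3 of CBS-/-CSE-/-(1), replicate 3 of CBS-/-(5) or replicate 5 of CBS-/-(8). In these fits 7.12%, 4.81%, 5.19% and 4.73% of all genes were called. The count was 13 without replicate 4 of CBS-/-CSE-/-(2), with 3.57% of all genes, and 12 without replicate 2 of CBS-/-(8), with 3.44%. Midgut genes summed to 13600 to 38837 CPM in the double deletion libraries and to 62.3 to 30315 in the CBS-/- libraries. With the midgut sum as a covariate, a fit added after seeing the data, 21 members were called, of which 16 were called before, and the share of all genes called fell to 8.86%.

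**Figure D5:**
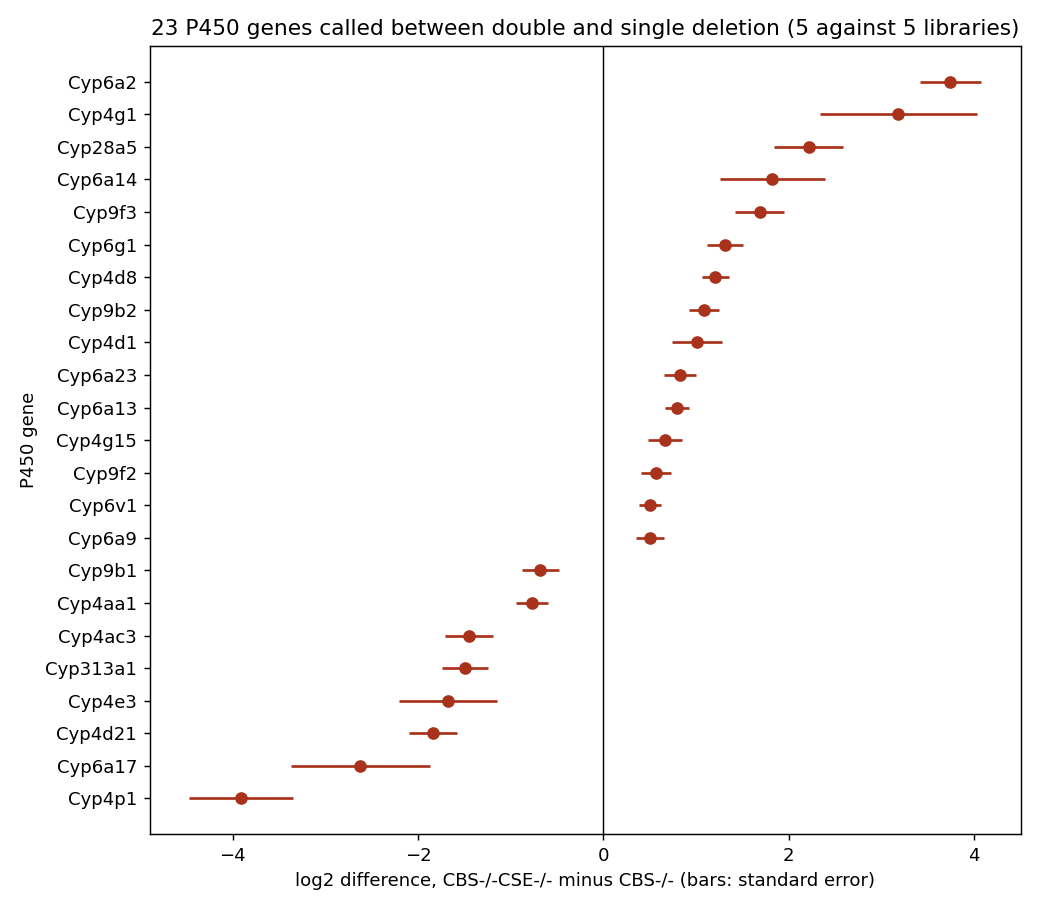
Log2 difference of the 23 called P450 genes between the double deletion and the CBS-/- strains (x axis, bars show the standard error, 5 libraries in each group). The 15 genes that were higher run up to Cyp6a2 at 3.74, and the 8 that were lower run down to Cyp4p1.

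Strains of 1 genotype differed as well. Between CBS-/-(5) and CBS-/-(8), 9 of 64 members were called, 6 higher and 3 lower in CBS-/-(5), where 3.86% of all genes were called, 0.711% higher and 3.15% lower. Besides Cyp6a17, Cyp4p2, Cyp6d5, Cyp6a14, Cyp4s3, Cyp4e3 and Cyp28a5, these were Cyp9f3 and Cyp12c1. Cyp12c1, of the mitochondrial clan, was at 32.9 and 33.9 CPM in CBS-/-(5) and 60.6 to 87.2 in CBS-/-(8), a log2 difference of -1.18 ± 0.22 (adjusted p = 0.0221), and Cyp9f3 was at 17.5 and 18.1 against 7.27 to 9.70 CPM, a difference of 1.11 ± 0.23 (adjusted p = 0.0338). Calls of Cyp9f3 and Cyp28a5 were lost in 4 of 5 fits without a library and that of Cyp12c1 in 3 of 5, and the other 6 held in each. Without replicate 1 of CBS-/-(8) 15 were called, with 7.86% of all genes. Without replicate 5, which had the yolk protein transcripts, 6 were called, with 3.06% of all genes. Midgut genes summed to 62.3 and 235 CPM in CBS-/-(5) and to 8221 to 30315 in CBS-/-(8), and their part in these differences was not tested. Between CBS-/-CSE-/-(1) and CBS-/-CSE-/-(2), none of 68 members was called by edgeR, where 0.353% of all genes were, 8 had an unadjusted p under 0.05, and DESeq2 called 3.

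Over all 6 strains at once, 29 of 70 members differed (edgeR F test), where 11.6% of all genes did. By clan these were 17 of 34 tested of the CYP3 clan, 10 of 25 of the CYP4 clan, 2 of 7 of the mitochondrial clan and 0 of 4 of the CYP2 clan (2 of the latter at an unadjusted p under 0.05). Among members Cyp6a2 and Cyp6a17 had the smallest adjusted p, 1.11e-06 for each, followed by Cyp6t1 with 4.83e-05, Cyp4e3 with 5.99e-05, Cyp6a14 with 7.41e-05 and Cyp9f3 with 9.81e-05. With the midgut sum as covariate 34 were called, the 29 among them, at 10.1% of all genes, and without any one library the count was 24 to 33.

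P450 enzymes need partners, which were examined from lists with the same fits. The electron donors and carriers Cpr, Cyt-b5, Fdx1, Fdx2 and dare were all tested, and none was called against WT in any strain by edgeR. At an unadjusted p under 0.05 there was 1 of 5 in CBS-/-(8), 1 in CSE-/- and 0 in the other 3 strains. Cpr, the reductase of microsomal P450s, was at 232 to 347 CPM and Cyt-b5 at 226 to 367. Between double deletion and CBS-/- strains dare, a reductase of the mitochondrial chain, and Fdx2, a ferredoxin, were higher by 0.61 ± 0.17 and 0.46 ± 0.13 on the log2 scale (adjusted p = 0.0326 and 0.0349), where 13.3% of all genes were called higher. The P450 genes of ecdysteroid synthesis with other symbols, spo, spok, phtm, dib, sad and shd, were low, and phtm and sad were the 2 of 6 with enough counts, at 2.09 to 7.25 and 0.523 to 3.98 CPM, and edgeR called neither in any strain (2, 1, 2, 0 and 1 of them at an unadjusted p under 0.05). Of the 6 regulators of detoxification genes (cnc, Keap1, maf-S, Hr96, ss and tgo) cnc, which encodes the factor related to mammalian Nrf2, was called against WT in CBS-/-CSE-/-(1), where it fell by 1.17 ± 0.21 (adjusted p = 0.0238), and no other regulator was called against WT. Between double deletion and CBS-/- strains cnc and tgo were lower by 0.51 ± 0.18 and 0.81 ± 0.24 (adjusted p = 0.0498 and 0.0361), 2 of the 6, where 14.4% of all genes were called lower. Of 35 UDP-glycosyltransferase genes, whose products add sugars to small molecules after P450 action, 20 to 22 were tested in a strain. Called were 2 higher and 4 lower in CBS-/-(5), 2 and 2 in CBS-/-(8), 2 and 1 in CBS-/-CSE-/-(1), 2 and 1 in CBS-/-CSE-/-(2) and 1 and 0 in CSE-/-. The share of all genes called was 9.34%, 6.44%, 4.18%, 3.45% and 0.778% in these strains in turn. The median log2 fold change of the glycosyltransferases was -0.20, 0.23, -0.02, 0.01 and 0.14. Ugt36E1 was the one called in each, from 3.96 ± 0.905 CPM (SD, n = 2) in WT to 25.1 ± 4.47 (SD, n = 3) in CBS-/-(8) as the lowest and 55.8 ± 11.6 (SD, n = 3) in CSE-/- as the highest.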

How the data were processed

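The authors made 15 mRNA libraries from male heads with a directional kit and mapped the reads to dm6. Tools named in the submitters' processing notes are Trimmomatic, STAR, SAMtools and featureCounts. The deposited values are raw counts of reads per gene without normalization. Of the reads, 8.65% to 13.9% were left off genes. The counting settings and annotation release were not given in the sources used here.

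Coordinates and exon lengths came from the Ensembl annotation of the same build, which held 17179 of the 17453 identifiers. Comparisons were run in edgeR 4.0.16 (R 4.3.3) with filterByExpr, TMM scaling and its quasi-likelihood F test (legacy fit), since the study's methods use edgeR with TMM. Each strain was fitted with WT alone. Standard errors are the log2 fold change divided by the root of F, and folds against WT libraries at or under the floor of 3 counts are lower bounds. The fits were tested on simulated data. Replicate numbers were not taken to pair libraries. P-values were adjusted by Benjamini-Hochberg over all genes tested. DESeq2 1.42.0 served as an alternative, with RLE scaling, other filters and thresholds, legacy off, a joint fit, a replicate block and leaving out each library. Tables and plots used Python 3.11.15, pandas 2.3.3, numpy 2.4.6 and matplotlib 3.10.9.

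Genes were named if called in the same direction in 2 or more comparisons with WT, if among the 8 highest per kb, the 5 highest or 5 lowest by mean change, the 8 smallest p over the 6 strains or the 5 smallest p in each comparison without WT, and 36 genes met this. Genes named as neighbours of these in the same subfamily, as partners, regulators or glycosyltransferases, or for counts of 5 or fewer, fall outside it. Lists of partner, regulator and marker genes were written by hand, and 163 of 167 symbols matched. The members and lists were chosen with earlier results of these data known. 1 gene whose symbol meets the rule, Cyp6a21, was not analysed here.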

Additional observations from a re-analysis of the deposited data

Results flagged for a closer look

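In 4 of 72 groups of 5 libraries that were examined for the named genes (both CBS-/- strains or both double deletion strains together), 1 library lay far from the other 4, and chance gives about 1 in 20 groups. Cyp4g1 was at 1.64 CPM in replicate 1 of CBS-/-(8), the highest of its group. Cyp6a13 was at 38.6 CPM in replicate 2 of CBS-/-(8), the lowest of its group. Cyp6a16 was at 5.75 CPM in replicate 2 of CBS-/-CSE-/-(2), and Cyp9h1 at 214 CPM in replicate 3 of CBS-/-CSE-/-(1), each the highest.

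Both CBS-/- strains differed from each other, as tested directly by edgeR, in 9 named genes. The log2 difference of CBS-/-(5) from CBS-/-(8) was 1.98 for Cyp4e3, 1.42 for Cyp28a5, 2.22 for Cyp4s3, 2.72 for Cyp6a14, 1.11 for Cyp9f3 and 1.74 for Cyp6d5. It was -3.99 for Cyp6a17, -3.39 for Cyp4p2 and -1.18 for Cyp12c1.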

How the results depend on the processing

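No called member changed direction under any alternative run. Counts of called members moved as follows. Under an adjusted p of 0.01 there were 5 in CBS-/-(5), 11 in CBS-/-(8), 6 in CBS-/-CSE-/-(1), 3 in CBS-/-CSE-/-(2) and 4 in CSE-/-. The share of all genes called was then 2.13%, 3.01%, 1.02%, 0.256% and 0.309%. Between double deletion and CBS-/- strains there were 11, with 1.53% of all genes. Without a filter on low counts there were 6 in CBS-/-(5), 28 in CBS-/-(8) and 20 in CBS-/-CSE-/-(2), and 3 between both double deletion strains. The share of all genes called was 2.53%, 8.47%, 7.4% and 0.841% in turn. DESeq2 gave 20 in CBS-/-CSE-/-(2), with 8.41% of all genes, and 3 between both double deletion strains, with 1.58%. Between the latter a minimum of 10 counts gave 1 (0.33% of all genes), legacy off 1 (0.436%) and the joint fit 2 (0.282%). The joint fit gave 10 in CBS-/-(5), with 4.29% of all genes, and a minimum of 10 counts gave 5 between both CBS-/- strains, with 1.32%.

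Leaving out 1 library in turn gave 0 to 22 members in CBS-/-(5), 10 to 26 in CBS-/-(8), 6 to 18 in CBS-/-CSE-/-(1), 4 to 19 in CBS-/-CSE-/-(2), 1 to 9 in CSE-/-, 12 to 30 between double deletion and CBS-/- strains, 6 to 15 between both CBS-/- strains, 0 between both double deletion strains and 24 to 33 over the 6 strains. The share of all genes called moved as well, and it is given here for fits with more than 1 library in each group. It was 4.47% to 17.6% in CBS-/-(8), 0.894% to 4.74% in CBS-/-CSE-/-(1) and 0.173% to 3.36% in CSE-/-. Between double deletion and CBS-/- strains it was 3.44% to 42.8%, between both CBS-/- strains 3.06% to 7.86% and over the 6 strains 8.43% to 16%. In CBS-/-(5) and CBS-/-CSE-/-(2) each fit left 1 library in a group. Where a strain kept 1 library, it was assumed to vary like the other group. Over the named genes, 186 of the calls refitted in this way were lost and 749 held.

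With the replicate number as a block there were 28 members in CBS-/-(5) (16% of all genes called), 27 in CBS-/-CSE-/-(1) (12.7%), 9 in CSE-/- (2.23%), 4 between double deletion and CBS-/- strains (0.498%) and 16 over the 6 strains (3.62%). The 4 were Cyp6a2, Cyp6g1, Cyp9f3 and Cyp4g1. Deviations of libraries with the same number correlated with WT at -0.54 to 0.36, and no strain shared 3 numbers with WT. Between double deletion and CBS-/- libraries of the same number the correlation was -0.31 to 0.08, so the numbers were not taken as a pairing. The block with crossed numbers, added after seeing the data, called 31 members in CBS-/-(5) (24% of all genes). A block could not be fitted between both CBS-/- strains, for lack of residual degrees of freedom, and CBS-/-(8) and CBS-/-CSE-/-(2) share too few numbers with WT for one.

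Strains have 2 or 3 libraries, and members under about 1 CPM rest on few reads.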

Other observations

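The pair Cyp12d1-p and Cyp12d1-d, which the symbol rule leaves out, are near-identical duplicates. Cyp12d1-p was at 4.24 to 16.2 CPM over the 15 libraries, and Cyp12d1-d had 0 counts in each. The pseudogene Cyp6a15Psi was at 0.55 to 1.99 CPM, and Cyp6t2Psi had at most 5 counts in a library.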
